A study of Mus musculus with 3 samples.

Results

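Arterial endothelial cells line the retinal arteries and arterioles, and in the single-cell libraries described here they made up 302 of the 1154 endothelial cells that met the limits given below. The cells came from retinas of C57BL/6JRj mice of 3 ages, Young (3 months), Adult (12 months) and Old (23 months), with no treatment or engineered allele named for any group. For each age the 4 retinas of 2 animals were pooled, dissociated, enriched for vessels and for CD31, the endothelial surface protein PECAM1, and read as 1 droplet library of 3′ unique molecular identifier (UMI) counts. The study asked how retinal endothelial cells differ with age. The sex of the animals is not stated in the sources used here, the animals within a pool cannot be separated, and animal and age cannot be told apart.

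Members were chosen by measured counts. A barcode with 500 to 6000 detected genes and 1 to 20% mitochondrial UMIs was kept where it held at least 4 of 8 endothelial genes (Pecam1, Cldn5, Cdh5, Flt1, Egfl7, Ptprb, Tie1 and Esam) and no more than 1 of 6 pericyte genes (Kcnj8, Abcc9, Vtn, Pdgfrb, Cspg4 and Higd1b). Of these, a cell with at least 2 of the arterial genes Gkn3, Vegfc, Sema3g, Egfl8, Fbln2 and Tmem100 was called arterial. The Young library gave 86 arterial cells of 393 endothelial cells, the Adult library 95 of 376 and the Old library 121 of 385, from 5400 barcodes within the limits and 8485 in all. Without the limit on pericyte genes the counts were 195 of 870, 230 of 804 and 234 of 759, so that limit left out many barcodes with endothelial genes. Arterial cells were compared with 256 venous-marker cells, which held at least 2 of Slc38a5, Nr2f2, Vwf, Ackr1, Il1r1 and Ephb4 and fewer than 2 arterial genes. They were also compared with the 596 remaining endothelial cells. Capillary genes were high in both of these classes, so they do not mark out the remaining cells.

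In arteries the endothelium faces the fastest flow, is wrapped by smooth muscle and is held in its identity by Notch signalling, with DLL4 and JAG1 as ligands, NOTCH1 and NOTCH4 as receptors and HEY1 among the targets. Arterial cells deposit elastic fibre proteins, couple to smooth muscle through gap junctions, and release endothelin and nitric oxide, which set vessel diameter. Retinal capillaries, in contrast, carry most of the transporters of the blood-retina barrier. In endothelial cells of every kind, interferons switch on antiviral genes and the machinery of antigen presentation.

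The 3 libraries held 16577026 (Young), 19977238 (Adult) and 17021820 (Old) UMIs. Arterial cells contributed 770634, 779280 and 1236641 UMIs, with medians of 6774, 6601 and 8276 per cell. Venous-marker cells were as deep (7081, 6772 and 8600), whereas the remaining cells were shallower (4156, 3389 and 4553). No arterial barcode occurred in more than 1 library, and over all barcodes the libraries shared at most 3. All intervals below cover 95% of counting error only, not the spread between animals.

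The label was checked against the genes of the rule, which are given as a description since they chose the cells. Levels are in CPM, the UMIs of a gene in a class scaled to a fixed total of 1000000 UMIs. Gkn3, a gastrokine that marks brain and retinal arteries, lay at 514, 666 and 583 CPM in Young, Adult and Old arterial cells, against 0, 6.80 and 5.61 in venous-marker cells and 9.94, 16.7 and 10.6 in the remaining cells. Sema3g, a secreted semaphorin, lay at 285, 209 and 323 CPM against 15.6, 13.6 and 20.2 and against 41.7, 33.4 and 40.1. The pan-endothelial tight junction gene Cldn5 lay at 4918, 4858 and 4670 CPM, and the pericyte gene Pdgfrb at 3.89, 6.42 and 1.62 CPM. Of the venous genes, Slc38a5 was lower in arterial than in venous-marker cells in each library (49.3, 21.8 and 15.4 against 126, 92.4 and 76.3 CPM). The venous genes were not absent, since 28, 30 and 45 arterial cells held at least 2 of them and Vwf lay at 188, 260 and 305 CPM.

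When each arterial gene was left out in turn and the cells chosen by the other 5, the gene left out was still higher in the chosen cells in all 3 libraries. The lowest of these 18 folds was 4.79 for Fbln2 in the Adult library, and for Gkn3 the folds were 18.1, 19.1 and 34.2. Outside the endothelium, 1 of 740, 0 of 1039 and 1 of 826 barcodes with no more than 1 endothelial gene held 2 or more arterial genes, and the 0 of 1039 allows a share of up to 0.354% (exact binomial bound). Cells just outside the threshold, with exactly 1 arterial gene, numbered 92, 83 and 90, and those just inside, with exactly 2, numbered 36, 44 and 32. Their summed arterial rule genes were 210, 186 and 173 CPM just outside and 443, 478 and 518 CPM just inside. This difference was fixed by the bins, which count the same genes. The 28 arterial genes not used by the rule summed to 9133, 10251 and 10102 CPM just outside and 10535, 13296 and 10564 CPM just inside.

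Genes outside the rule had graded levels along the number of arterial genes that a cell held. Gja4, which encodes the gap junction protein connexin 37 (chr4:127311421-127314039, minus strand, GRCm38), lay at 3.66, 2.20 and 1.93 CPM in Young, Adult and Old cells with no arterial gene. In cells with 5 or 6 arterial genes it lay at 93.8, 120 and 124 CPM, above every other bin of its library. Bmx, an arterial tyrosine kinase, went from 47.6, 59.3 and 58.7 CPM to 528, 519 and 410. The elastic tissue protein gene Mgp went from 273, 417 and 399 CPM to 4760, 5936 and 5099. In the opposite direction, the lactate transporter gene Slc16a1 went from 960, 918 and 963 CPM to 326, 177 and 297, and the chemokine gene Cxcl12 from 5271, 5433 and 4260 CPM to 918, 1393 and 918. Since a deeper cell shows more of the 6 genes, depth differed along this axis too.

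**Figure D1:**
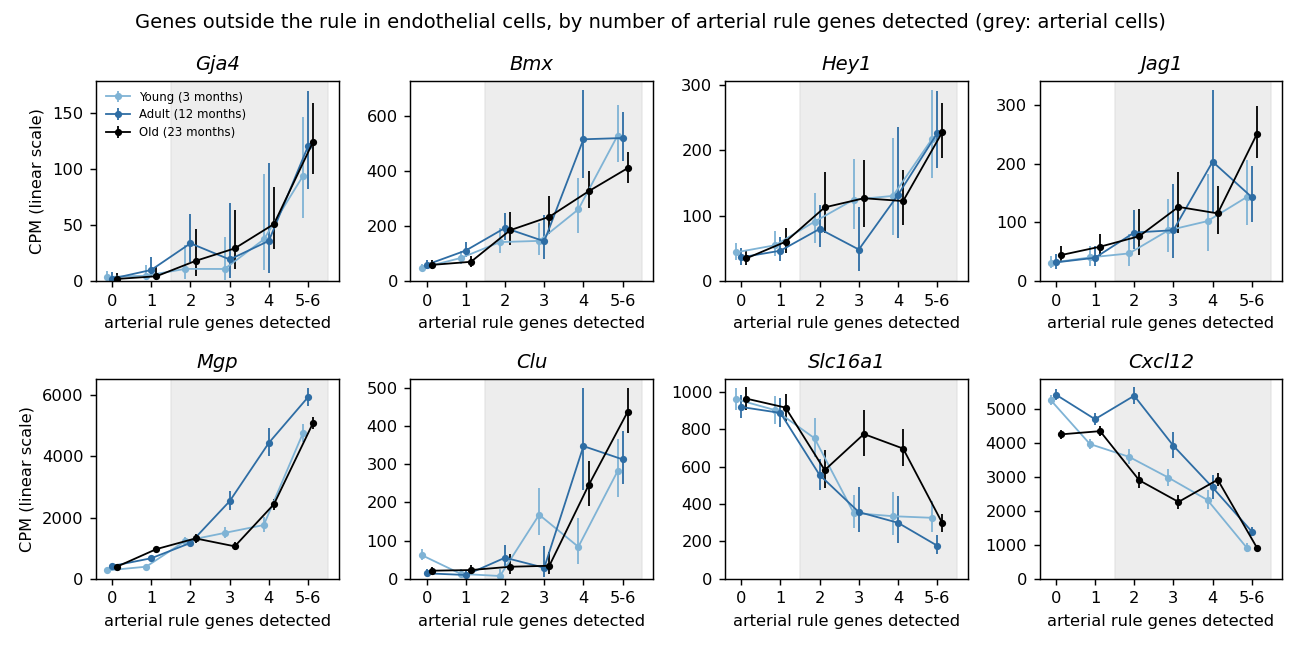
Levels of 8 genes outside the rule in endothelial cells (CPM, linear axis from 0), grouped by how many of the 6 arterial rule genes a cell held, with 1 line per library and bars for 95% exact Poisson intervals; the shaded bins are the arterial cells. Gja4 reached 93.8, 120 and 124 CPM in cells with 5 or 6 rule genes of the Young, Adult and Old libraries, while Cxcl12 was at 918, 1393 and 918 CPM there.

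The first comparison asked which genes set arterial cells apart from the other endothelial cells of the same libraries. Counts were summed per library and class and fitted with edgeR's quasi-likelihood test with the library as a block, over 8059 genes. Because cells were sorted by their own counts, these fits describe the classes and test nothing that the rule did not touch. Against venous-marker cells 398 genes were higher (4.94% of those tested) and 256 lower (3.18%) at an adjusted p under 0.05, and against the remaining cells 342 were higher (4.24%) and 249 lower (3.09%). In arterial cells 240 genes were higher than in both classes and 114 lower than in both. The counts depended on the libraries and the tool: with 1 library left out they were 244 to 286, 142 to 161, 202 to 229 and 104 to 114 in the order given, and DESeq2 with the same 0.05 threshold gave 174, 99, 140 and 98.

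Genes known from arteries but not used by the rule were mostly higher: of 26 tested among 28 listed, 22 were higher and 1 lower than in venous-marker cells, and 20 higher and 1 lower than in the remaining cells. Over all genes these shares were 4.94, 3.18, 4.24 and 3.09%. This and the other gene lists were chosen with earlier results of these data known, so they describe the cells and are no independent check of the label. For the arterial list the fold changes were as follows. The median log2 fold change of its tested genes was 1.53 and 1.06, beside −0.01 and 0.00 over all genes tested. Bmx lay at 261, 332 and 320 CPM in arterial cells against 26.9, 68.0 and 56.1 in venous-marker cells and 84.4, 91.2 and 70.8 in the remaining cells (log2 fold change 2.59 ± 0.15 and 1.84 ± 0.13, ± SE). The lowest arterial library was above the highest library of either other class. Efnb2, the ephrin ligand that marks arteries from early development, lay at 160, 154 and 160 CPM against 45.3, 36.7 and 44.9 and against 56.6, 54.0 and 60.2 (1.89 ± 0.14 and 1.43 ± 0.13). Gja4 lay at 36.3, 61.6 and 72.0 CPM against 1.41, 1.36 and 0 and against 5.96, 8.99 and 5.90 (5.85 ± 0.47 and 2.96 ± 0.30). Unc5b, a netrin receptor, lay at 115, 98.8 and 105 CPM against 21.2, 17.7 and 32.6 and against 44.7, 39.8 and 48.4 (2.12 ± 0.19 and 1.21 ± 0.16). For these 4 genes the classes did not overlap across libraries.

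The arterial list had members that did not follow. Sox17, a transcription factor needed for arterial identity, lay at 546, 728 and 662 CPM against 532, 585 and 590 and against 623, 583 and 576, with overlapping ranges. Nrp1, a co-receptor for VEGF, had log2 differences of 0.03 and −0.21. Cxcl12, a chemokine usually placed with arteries, was lower than in either class, at 2568, 3547 and 1976 CPM against 3400, 4263 and 3860 and against 5787, 5976 and 4758 (−0.55 ± 0.09 and −1.10 ± 0.09). Its arterial range overlapped that of venous-marker cells and lay below that of the remaining cells.

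Within the Notch pathway, 7 of 17 genes tested were higher than in venous-marker cells and 7 higher than in the remaining cells, beside 4.94 and 4.24% of all genes. None was lower in this fit, beside 3.18 and 3.09% of all genes, shares at which a list of 17 can hold none. Among the ligands, Dll4 lay at 131, 114 and 128 CPM against 39.6, 24.5 and 55.0 and against 59.6, 65.5 and 62.6 (1.62 ± 0.18 and 0.95 ± 0.16). Jag1 lay at 89.5, 117 and 167 CPM against 42.4, 34.0 and 55.0 and against 28.8, 36.0 and 44.9 (1.51 ± 0.16 and 1.73 ± 0.16). In both genes the lowest arterial library was above the highest of the other classes. Of the receptors, Notch1 was 0.64 ± 0.09 and 0.53 ± 0.09 higher on the log2 scale. Of the targets, Hey1 lay at 138, 131 and 165 CPM against 31.1, 24.5 and 25.8 and against 59.6, 55.3 and 64.9 (2.43 ± 0.16 and 1.23 ± 0.14). Nrarp, a feedback inhibitor of the pathway, was at 35.0, 35.9 and 34.8 CPM against 5.66, 13.6 and 15.7 and against 11.9, 14.1 and 10.6. Hes1, another target, was not set apart, with log2 differences of −0.01 and −0.13. Dll4, Jag1 and Hey1 also belong to the arterial list above, so the counts of these lists are not independent.

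Genes of elastic fibres and the arterial wall were higher as well: 6 of 10 tested were higher and 1 lower against each class. Over all genes 4.94 and 4.24% were higher, and 3.18 and 3.09% lower. Mgp lay at 2298, 3327 and 3115 CPM against 362, 570 and 647 and against 286, 470 and 609 (2.50 ± 0.10 and 2.68 ± 0.10). Eln, which encodes elastin, lay at 119, 110 and 180 CPM against 60.8, 55.7 and 71.8 and against 33.8, 42.4 and 53.1 (1.13 ± 0.14 and 1.64 ± 0.15). Fbln5, whose product assembles elastin into fibres (chr12:101746565-101819055, minus strand), lay at 20.8, 19.2 and 63.9 CPM, with no UMI in venous-marker cells and 3 UMIs in the remaining cells. Mgp, Eln and Fbln5 are in the arterial list as well. Outside both lists, Timp3, an inhibitor of matrix proteases, lay at 976, 956 and 1130 CPM against 321, 512 and 387 and against 349, 416 and 513.

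Genes that control vessel diameter were set apart in number: 7 of 10 tested were higher than in venous-marker cells and 8 higher than in the remaining cells, beside 4.94 and 4.24% of all genes. None was lower, beside 3.18 and 3.09% of all genes, shares at which a list of 10 can hold none. Edn1, the endothelin precursor, lay at 532, 725 and 738 CPM against 231, 415 and 341 and against 411, 499 and 583 (1.03 ± 0.10 and 0.37 ± 0.09). It overlapped the remaining cells across libraries but was higher in each library. Edn1 is in the arterial list as well. Ace, which makes angiotensin II, lay at 22.1, 21.8 and 24.3 CPM against 0, 2.72 and 1.12 and was not seen in the remaining cells. Trpv4, a stretch-sensitive calcium channel, lay at 29.8, 38.5 and 42.0 CPM against 5.66, 6.80 and 7.86 and against 8.94, 6.42 and 16.5 (2.42 ± 0.34 and 1.73 ± 0.30). Gja1, which encodes connexin 43, lay at 154, 140 and 150 CPM against 102, 43.5 and 41.5 and against 87.4, 61.7 and 51.9. Nos3, the endothelial nitric oxide synthase, was close in all classes (0.25 and 0.34 on the log2 scale).

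Capillary genes ran the other way: of 18 tested, 11 were lower and 1 higher than in venous-marker cells, and 9 lower and 1 higher than in the remaining cells. Slc16a1 lay at 485, 372 and 522 CPM against 1017, 982 and 982 and against 883, 834 and 903 (−1.12 ± 0.09 and −0.97 ± 0.09). Car4, a carbonic anhydrase of capillary endothelium, lay at 54.5, 14.1 and 52.6 CPM against 206, 198 and 126 and against 75.5, 87.4 and 69.6. Tfrc, the transferrin receptor, lay at 162, 167 and 88.1 CPM against 264, 251 and 190 and against 299, 301 and 143. The classes did not overlap for Slc16a1 and Car4, whereas Tfrc in arterial cells reached above the Old remaining cells. The single capillary gene that was higher was Slc2a1, the glucose transporter of the barrier, at 0.27 and 0.32 on the log2 scale. Of the 25 barrier genes tested, 2 were higher and 4 lower than in venous-marker cells, and 2 higher and 2 lower than in the remaining cells. Over all genes the shares called in these directions were 4.94, 3.18, 4.24 and 3.09%.

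Interferon-stimulated genes were higher in arterial cells in part. Of 30 tested, 9 were higher than in venous-marker cells and 4 higher than in the remaining cells, with none lower and median log2 differences of 0.23 and 0.21. Of 18 antigen presentation genes, 7 and 6 were higher, none was lower, and the medians were 0.36 and 0.28. Over all genes 4.94 and 4.24% were higher, and 3.18 and 3.09% lower, so lists of this size can hold no lower gene. The class I heavy chain gene H2-K1 was 0.55 and 0.58 higher on the log2 scale, and B2m, its light chain, 0.46 and 0.48. Ifitm3, which blocks viral entry, was 0.50 and 0.37 higher.

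**Figure D2:**
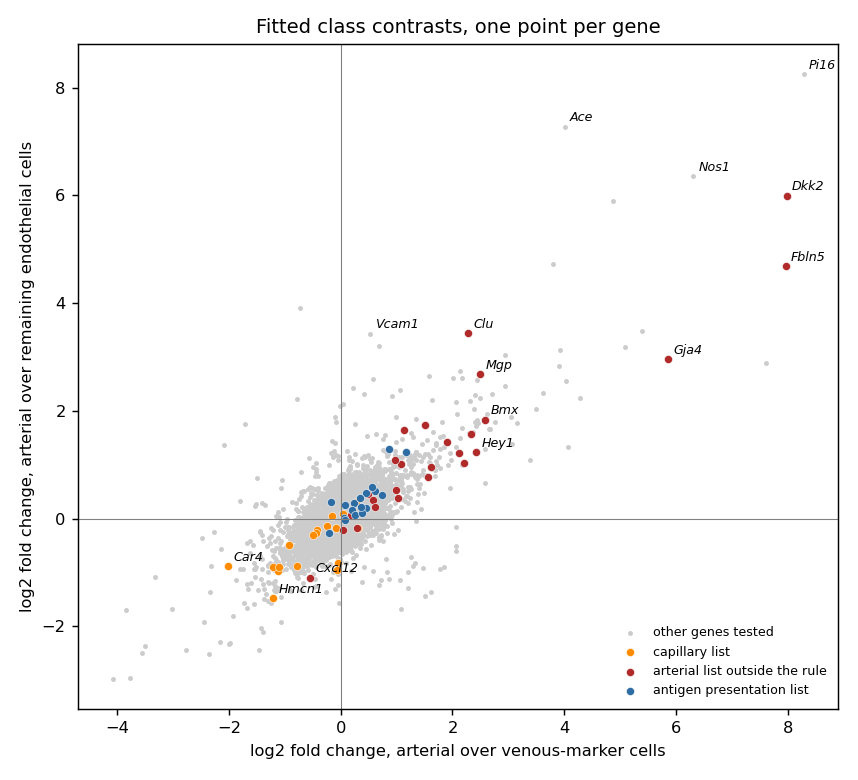
Fitted log2 fold change of each of the tested genes outside the rule, arterial over venous-marker cells (horizontal axis) and arterial over the remaining endothelial cells (vertical axis), with the arterial, capillary and antigen presentation lists coloured. Arterial genes lie mainly to the upper right (Gja4 at 5.85 and 2.96), capillary genes to the lower left (Car4 at −2.03 and −0.88), and Cxcl12 stands on the capillary side (−0.55 and −1.10).

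Vascular cell adhesion molecule Vcam1, which binds leukocytes, separated arterial cells from the remaining cells but less from venous-marker cells, at 196, 255 and 236 CPM against 83.4, 185 and 212 and against 5.96, 18.0 and 39.0. Its log2 fold change against venous-marker cells was 0.52 ± 0.16, but it was −0.64 once cells with any smooth muscle UMI were left out, so its direction there depended on those cells. Tgfb2, a ligand of the TGF-beta family, lay at 224, 262 and 278 CPM against 119, 109 and 87.6 and against 128, 145 and 142.

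The 15 genes outside the rule with the highest mean fold change included some that the other endothelial cells barely held. Pi16, which encodes a membrane-bound peptidase inhibitor (chr17:29317680-29330593, plus strand), lay at 41.5, 12.8 and 76.0 CPM in arterial cells, with 136 UMIs in all. It had 0 UMIs in both other classes, so it was at least 38.0-fold and 42.8-fold higher (against 3 UMIs over the pooled class). Dkk2, a modulator of Wnt signalling (chr3:132085292-132180304, plus strand), lay at 16.9, 19.2 and 67.9 CPM with 112 UMIs against 0 and 1, at least 31.3-fold over venous-marker cells. Nos1, the neuronal type of nitric oxide synthase (chr5:117781032-117958840, plus strand), lay at 33.7, 38.5 and 59.8 CPM with 130 UMIs against 1 and 1. These 3 genes were nearly confined to arterial cells among the endothelial classes of these libraries. S100a4, a calcium-binding protein gene, lay at 54.5, 25.7 and 79.2 CPM with 160 UMIs against 4 and 2. Gper1, an oestrogen receptor of the membrane, lay at 58.4, 60.3 and 64.7 CPM against 1.41, 5.44 and 2.25 and against 12.9, 8.99 and 15.3. Npr3, the clearance receptor for natriuretic peptides, lay at 48.0, 19.2 and 44.5 CPM against 1.41, 4.08 and 1.12 and against 4.97, 10.3 and 3.54.

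Among the same 15 were 3 collagen genes. Col8a1 had 82 UMIs in arterial cells against 0 and 9, Col18a1 123 against 2 and 9, and Col5a2 74 against 4 and 2. Fbln5, Ace and Gja4 also belonged to them, together with Syt15, a synaptotagmin gene (211 UMIs against 11 and 21), Ssu2 (57 against 1 and 5) and Laptm5 (136 against 7 and 16). Laptm5 is best known from the lysosomes of blood cells. It was seen in 13 Young, 20 Adult and 33 Old arterial cells. Of the leukocyte genes, Ptprc, Tyrobp, Cd52 and C1qa had no UMI in Young or Old arterial cells but 19, 40, 27 and 4 in Adult ones. Cd74 had 0, 18 and 38 UMIs in 0, 7 and 13 cells, and Cd79a had 1, 4 and 3 UMIs. Their part in the Laptm5 value was not tested.

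The 10 lowest genes were led by neuronal ones. Cplx3, a complexin of retinal synapses, lay at 1.30, 1.28 and 2.43 CPM in arterial cells against 29.7, 10.9 and 46.0 in venous-marker cells and 9.94, 1.28 and 29.5 in the remaining cells. Syt1, the calcium sensor of synaptic vesicles, had 8 UMIs against 81 and 40, and Rorb, a nuclear receptor of photoreceptor and bipolar development, 5 against 54 and 28. Mgarp had 24 against 294 and 74. A summed list of 8 neuronal genes, added after these values were seen, stood at 6.49, 10.3 and 8.90 CPM in arterial cells, 87.7, 23.1 and 57.2 in venous-marker cells and 18.9, 18.0 and 29.5 in the remaining cells. Its part in these differences was not tested. Adgrl3, Cdr1os, Ttyh2, Mycn, Slc9b2 and Acsl6 completed the 10, each with log2 differences between −1.81 and −2.77.

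Cells with a smooth muscle UMI were more frequent in the arterial class. Of the 10 listed smooth muscle genes 3 could be tested, of which 2 were higher and none lower than in venous-marker cells, and 1 higher and 1 lower than in the remaining cells. Over all genes the shares called in these directions were 4.94, 3.18, 4.24 and 3.09%, and 3 genes are too few to set a share against them. A UMI of the 10 smooth muscle genes was found in 31.4, 47.4 and 52.9% of Young, Adult and Old arterial cells, against 17.3, 29.8 and 34.1% of venous-marker cells, which were as deep, and 24.8, 18.3 and 21.97% of the shallower remaining cells. Mylk, the myosin light chain kinase gene that endothelial cells also use, made up much of it, at 62.3, 87.3 and 71.2 CPM. Acta2, smooth muscle actin, lay at 16.9, 21.8 and 8.09 CPM. Without cells that held such a UMI, 185 genes were higher and 102 lower than in venous-marker cells, and 117 higher and 75 lower than in the remaining cells. Summed fibroblast genes had 2, 2 and 7 UMIs.

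Arterial cells also differed among themselves. In the Young, Adult and Old libraries 60, 58 and 52 arterial cells held 2 or 3 rule genes and 26, 37 and 69 held 4 to 6, so the bins are given by library. Gja4 stood at 10.9, 30.2 and 23.4 CPM in cells with 2 or 3 rule genes and at 74.2, 100.2 and 97.7 CPM in those with 4 to 6. Ace stood at 2.17, 2.33 and 4.68 against 51.6, 45.8 and 34.6 CPM, and the collagen gene Col5a2 at 4.34, 4.65 and 4.68 against 38.7, 40.1 and 51.9 CPM. For these 3 genes the counting intervals of the bins were apart in each library. Fbln5 stood at 17.4, 4.65 and 0 CPM against 25.8, 37.2 and 97.7 CPM, with overlapping intervals in the Young library. Lower in the cells with more rule genes of each library were Cxcl12 (3351, 5043 and 2598 against 1406, 1704 and 1648 CPM), Ctla2a (651, 465 and 540 against 281, 106 and 194 CPM) and Rgs5, a G protein regulator abundant in pericytes (747, 874 and 486 against 358, 352 and 59.3 CPM).

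Within the class, 31 of 302 cells (10.3%, interval 7.08 to 14.3%) held a UMI of Pi16. By library these were 8 of 86 (9.30%), 5 of 95 (5.26%) and 18 of 121 cells (14.9%). No cell of the other endothelial classes held one. The following genes were chosen after their values were seen, so their shares are a description. Clu, which encodes the secreted chaperone clusterin, was seen in 29 of the 31 cells and 75 of the other 271, and lay at 728 against 124 CPM. S100a4 was seen in 21 against 11 cells (420 against 8.95 CPM), and Fbln5 in 19 against 12 (228 against 14.2 CPM). The scavenger receptor gene Scara3 was seen in 19 against 10 cells and Ace in 16 against 14. Bmx did not separate them as far, at 24 of 31 and 187 of 271.

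The 19 capillary genes summed to 5029 CPM in the cells with Pi16 and 12027 CPM in those without, and within the libraries to 6045, 9371 and 3151 against 11985, 12449 and 11768 CPM. Of these genes Slc16a1 was seen in 4 of 31 cells against 168 of 271 (42.6 against 527 CPM). The chemokine gene Cxcl12 was seen in 18 against 245 cells (1151 against 2770 CPM). Npr3 was seen in 1 of 31 and 39 of 271 cells, and Dkk2 in 7 of 31 and 40 of 271, so not every gene of the highest group went with Pi16. The 31 cells had a median of 8643 UMIs and 5 rule genes, the others 7126 UMIs and 3 rule genes. Of the 31, 23 held 4 or more rule genes.

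**Figure D3:**
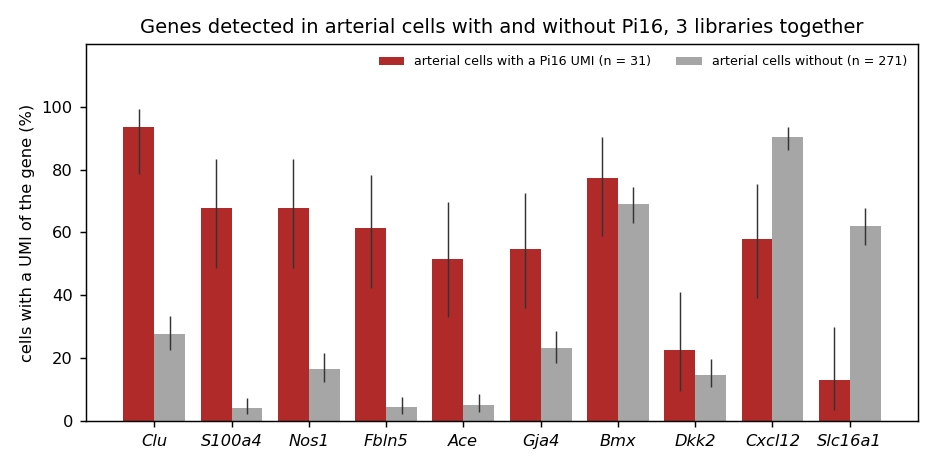
Share of arterial cells with at least 1 UMI of each gene (%, axis from 0), for the 31 cells with a Pi16 UMI (red) and the 271 without (grey), 3 libraries together; bars are 95% exact binomial intervals. Fbln5 was seen in 61.3% of the cells with Pi16 and 4.43% of those without, whereas Slc16a1 was seen in 12.9% and 62.0%.

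Turning to age, each age had 1 library, so no test between ages was possible and no p is given. The share of arterial cells among endothelial cells was 21.9% (17.9 to 26.3%) at 3 months, 25.3% (20.9 to 30.0%) at 12 months and 31.4% (26.8 to 36.3%) at 23 months. With every cell thinned to 2000 UMIs before the rule was applied, the shares were 12.8, 14.6 and 18.8%, in the same order. With at least 3 rule genes they were 12.7, 13.6 and 23.1%. Dissociation and the CD31 enrichment act before the droplets and can set these shares. Within the arterial class the share of cells with 4 or more rule genes was 30.2% (20.8 to 41.1%), 38.9% (29.1 to 49.5%) and 57.0% (47.7 to 66.0%). Old arterial cells were also deeper, and with every cell thinned to 2000 UMIs these shares were 4.76% (1.31 to 11.7%), 8.89% (3.92 to 16.8%) and 14.7% (8.78 to 22.4%), in the same order but with overlapping intervals. Several of the age comparisons below are therefore also given for cells with 4 or more rule genes, a restriction added after the data were seen.

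Over all genes with at least 50 UMIs in the Young and Old arterial cells together (5447), 304 were at least 1.5-fold higher in Old cells (5.58%) and 227 at least 1.5-fold lower (4.17%). Between Adult and Young, with 4604 genes, the counts were 200 (4.34%) and 139 (3.02%). The median log2 ratio was 0.01 for Old over Young and 0.05 for Adult over Young.

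Interferon-stimulated genes were higher with age in arterial cells. Their summed level was 5172, 6221 and 8308 CPM, 1.61-fold higher (1.55 to 1.67) in Old than in Young cells and 1.20-fold higher (1.15 to 1.25) in Adult cells. Of 30 members, 29 were higher in Old cells and 17 were past 1.5-fold, a share well above the 5.58% of all genes. Between Adult and Young 26 of 28 measured were higher and 1 was past 1.5-fold, near the 4.34% of all genes. In cells with 4 or more rule genes the summed ratio was 1.37 (1.30 to 1.44), and of 29 members measured 26 were higher and 9 past 1.5-fold, beside 6.68% of the 3608 genes measured there. The ratio was 1.65 without the cells rich in haemoglobin transcripts. In the other endothelial cells it was 1.68, and the arterial ratio divided by that was 0.953 (0.910 to 0.999). The direction of this quotient was not stable, since it was 0.812 in cells with 4 or more rule genes, 1.06 against the remaining cells alone and 1.11 with cells thinned to 2000 UMIs.

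Irf7, the interferon regulatory factor that sustains the response (chr7:141262706-141266481, minus strand), lay at 127, 169 and 360 CPM, 2.83-fold higher (2.27 to 3.56) in Old than in Young arterial cells and 2.03-fold (1.497 to 2.81) in those with 4 or more rule genes. Isg15, a ubiquitin-like protein attached to targets after interferon, lay at 339, 459 and 714 CPM (2.11-fold, 1.83 to 2.43). Ifit3 lay at 97.3, 136 and 253 CPM (2.60-fold, 2.02 to 3.39) and Ifit3b, a near copy, at 20.8, 33.4 and 89.8 CPM (4.32-fold, 2.55 to 7.83), and reads of the pair may be shared. In all 4 genes the level was lowest in Young and highest in Old cells. The membrane tether gene Bst2 lay at 237, 250 and 455 CPM (1.92-fold), and Ifi44 at 61.0, 71.9 and 166 CPM (2.72-fold). The single member that was lower in Old cells was Ifi27, at 240, 302 and 227 CPM (0.947-fold). Of the sensors, Ifih1 (MDA5) lay at 103, 113 and 137 CPM and Ddx58 (RIG-I) at 48.0, 65.4 and 55.0 CPM, neither past 1.5-fold. Of the oligoadenylate synthetase family, with members that sense double-stranded RNA, Oas1a lay at 15.6, 32.1 and 39.6 CPM (2.54-fold, 1.33 to 5.26) and Oasl2 at 93.4, 112 and 154 CPM (1.65-fold, 1.25 to 2.20). In cells with 4 or more rule genes the ratios of this pair were 1.44 and 1.31, with intervals that included 1. The genes of interferon receptors and their signalling summed to 1100, 1282 and 1179 CPM (1.07-fold, 0.98 to 1.17).

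Antigen presentation genes followed the same order. They summed to 4840, 5553 and 8498 CPM, 1.76-fold higher (1.69 to 1.82) in Old cells and 1.15-fold in Adult cells. All 18 members measured were higher in Old cells and 9 were past 1.5-fold, beside 5.58% of all genes. Between Adult and Young 2 of 17 measured were past 1.5-fold, beside 4.34% of all genes. B2m lay at 1052, 1306 and 2060 CPM (1.96-fold, 1.81 to 2.12), H2-K1 at 871, 979 and 1642 CPM (1.89-fold) and H2-D1 at 1007, 1188 and 1786 CPM (1.77-fold). The class I genes H2-Q6 (28.5, 59.0 and 167 CPM) and H2-Q7 (75.3, 133 and 366 CPM) had the highest ratios, 5.84 and 4.86, but they are near-identical copies whose reads may be divided between them. In the other endothelial cells their ratios were larger, 25.2 (12.0 to 63.6) and 21.3 (13.3 to 36.2), from Young levels of 4.08 and 10.5 CPM. Psmb8, an immunoproteasome subunit, lay at 180, 227 and 292 CPM, and the chaperone gene Calr was near level (1.13-fold). In arterial cells with 4 or more rule genes the summed ratio was 1.59, with 16 of 17 measured higher and 7 past 1.5-fold, beside 6.68% of genes. In the other endothelial cells it was 1.89, and the arterial ratio divided by it was 0.930 (0.885 to 0.977), or 0.843 with 4 or more rule genes.

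Promoters of 3 genes induced by interferon are shown because they hold a short sequence that was more frequent in the interferon list than over all genes. The core of the interferon response element, GAAANNGAAA or TTTCNNTTTC on the other strand, was searched in the 250 bases before each transcript start of RefSeq (GRCm38.p6). It was present in 14 of the 24 listed interferon-stimulated genes with a promoter entry (58.3%), in 3 of 17 antigen presentation genes (17.6%) and in 936 of 27025 genes overall (3.46%). Matches to it are in capitals in the following windows, written 5′ to 3′ along the gene's strand, at chr4:156200819-156201068 (minus strand) for Isg15, where 3 matches overlap, chr19:34583279-34583528 (plus strand) for Ifit3, and chr2:122147437-122147686 (plus strand) for B2m.
Isg15: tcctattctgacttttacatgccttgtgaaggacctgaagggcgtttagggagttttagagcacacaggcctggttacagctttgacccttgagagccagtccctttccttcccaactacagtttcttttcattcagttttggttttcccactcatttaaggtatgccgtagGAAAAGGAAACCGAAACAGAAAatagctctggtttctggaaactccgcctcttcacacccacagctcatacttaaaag
Ifit3: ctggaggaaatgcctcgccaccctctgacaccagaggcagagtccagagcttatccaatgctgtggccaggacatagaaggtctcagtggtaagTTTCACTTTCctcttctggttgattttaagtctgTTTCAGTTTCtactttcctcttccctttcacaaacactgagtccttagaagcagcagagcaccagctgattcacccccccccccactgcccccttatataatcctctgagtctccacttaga
B2m: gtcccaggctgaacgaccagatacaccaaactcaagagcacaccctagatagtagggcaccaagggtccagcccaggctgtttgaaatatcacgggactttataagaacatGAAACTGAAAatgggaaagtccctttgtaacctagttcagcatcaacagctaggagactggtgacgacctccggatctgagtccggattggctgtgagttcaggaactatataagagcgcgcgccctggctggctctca
In these windows the matches start 78, 72 and 66 bases before the transcript start of Isg15, 156 and 122 bases before that of Ifit3, and 139 bases before that of B2m. Irf7 had no match in its window. A match is a run of letters and not evidence of binding. The 6-letter core of the Notch factor RBPJ, TGGGAA or TTCCCA, was present in 5 of 21 arterial genes (23.8%), 5 of 17 Notch genes (29.4%), 5 of 24 interferon-stimulated genes (20.8%), 11 of 17 antigen presentation genes (64.7%) and 24.1% of all genes.

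Per cell, the interferon-stimulated genes had a median of 44.3 UMIs per 10000 at 3 months (10.1 to 194), 58.5 at 12 months (8.97 to 190) and 68.3 at 23 months (0 to 572). Of the Young cells 43 of 86 lie above their own median by construction, against 64 of 95 Adult cells (67.4%) and 90 of 121 Old cells (74.4%). Antigen presentation genes had medians of 40.0, 49.99 and 76.7 UMIs per 10000, and 113 of 121 Old cells (93.4%) were above the Young median. The ranges of the 3 libraries overlapped for both lists. Thinned to 2000 UMIs per cell, the interferon medians were 50, 60 and 75 per 10000 in arterial cells, 25, 45 and 60 in venous-marker cells and 35, 40 and 50 in the remaining cells, so arterial cells had the highest median at each age.

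**Figure D4:**
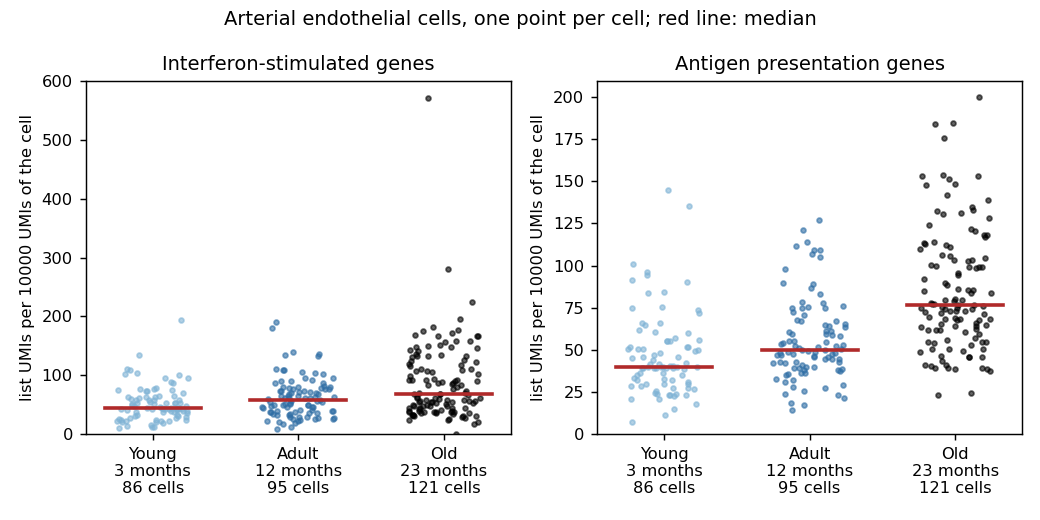
UMIs of interferon-stimulated genes (left) and antigen presentation genes (right) per 10000 UMIs in each arterial cell (linear axes from 0), 1 point per cell by library, with the median as a red line. Medians were 44.3, 58.5 and 68.3 on the left and 40.0, 49.99 and 76.7 on the right, and 1 Old cell stood at 572 on the left.

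The Old cell at 572 held 369 interferon-list UMIs of its 6455, led by Rsad2, Isg15 and Ifit2, which was 3.59% of the list's UMIs in Old arterial cells. Without it the summed ratio of Old to Young was 1.56 (1.5003 to 1.62). The same cell held 102 of the 103 Old UMIs of Cxcl10, an interferon-induced chemokine that was at 0 in Young cells and so at least 21.4-fold higher in Old cells (against 3 UMIs). By marker number, the interferon list stood at 4194, 4273, 4910 and 5562 CPM in Young endothelial cells with 0, 1, 2 to 3 and 4 to 6 arterial genes. In Old cells it stood at 6651, 7803, 9632 and 7608 CPM, higher than in Young cells in each bin.

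Arterial genes outside the rule summed to 12121, 15067 and 13272 CPM, 1.24-fold higher in Adult and 1.09-fold higher (1.07 to 1.12) in Old than in Young cells. Of 26 members 19 were higher in Old cells and 6 were past 1.5-fold, beside 5.58% of all genes. In cells with 4 or more rule genes 14 of 26 were higher and 4 were past 1.5-fold, beside 6.68% of genes. The 6 in all arterial cells were Dkk2 (4.03-fold, 2.23 to 7.87), Fbln5 (3.08-fold), Gja4 (1.98-fold, 1.28 to 3.15), Clu (1.96-fold), Jag1 (1.86-fold, 1.41 to 2.48) and Eln (1.51-fold). Among cells with 4 or more rule genes Gja4 was at 1.32-fold (0.819 to 2.20) and Eln at 1.16-fold (0.864 to 1.58), with intervals that included 1, Clu at 1.73-fold and Jag1 at 1.56-fold. The summed ratio was 1.03 there, and in cells without a smooth muscle UMI it was 1.01, so the difference in the sum was smaller in both restrictions. Efnb2 (1.00-fold) and Dll4 (0.975-fold) were near level in Old cells, and Hey1 was at 1.20-fold with an interval that included 1 (0.944 to 1.53). Notch genes summed to 2020, 2188 and 2052 CPM (1.02-fold). Cxcl12 was 1.38-fold higher in Adult and 0.77-fold in Old than in Young cells, but in cells with 4 or more rule genes it was 1.17-fold (1.05 to 1.31) in Old cells, so its direction depended on the marker number.

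Genes for vessel diameter summed to 1474, 1630 and 1666 CPM, 1.13-fold higher in Old cells, but 0.887-fold in cells with 4 or more rule genes. Edn1 was 1.39-fold higher (1.23 to 1.56), but 0.977-fold (0.837 to 1.14) in cells with 4 or more rule genes. Elastic matrix genes summed to 6138, 7367 and 7006 CPM (1.14-fold), and the ratio was 0.999 in cells with 4 or more rule genes. Capillary genes summed to 11461, 12182 and 10423 CPM (0.91-fold), with 4 of 18 higher and 4 at least 1.5-fold lower (4.17% over all genes), among them Tfrc (0.543-fold) and Hmcn1 (0.497-fold), which encodes the matrix protein hemicentin. In the other endothelial cells the capillary ratio was 0.887, and the arterial ratio divided by it was 1.02 (0.992 to 1.06). Venous genes outside the rule summed to 1727, 1485 and 1578 CPM (0.91-fold, but 1.07-fold as a mean over cells and 0.701-fold in cells with 4 or more rule genes). Of the Young sum, 113 CPM came from Plvap, a protein of fenestrae, nearly all of it in 1 cell, and without this gene the arterial ratio was 0.975 (0.908 to 1.05). In the other endothelial cells the venous list without Plvap was 1.19-fold higher in Old than in Young. Genes of BMP and TGF-beta signalling were 1.17-fold higher. Barrier genes (1.03-fold) and flow-response genes (1.02-fold) were near level. Dissociation-response genes were at 1.04-fold, and at 1.17-fold in cells with 4 or more rule genes.

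**Figure D5:**
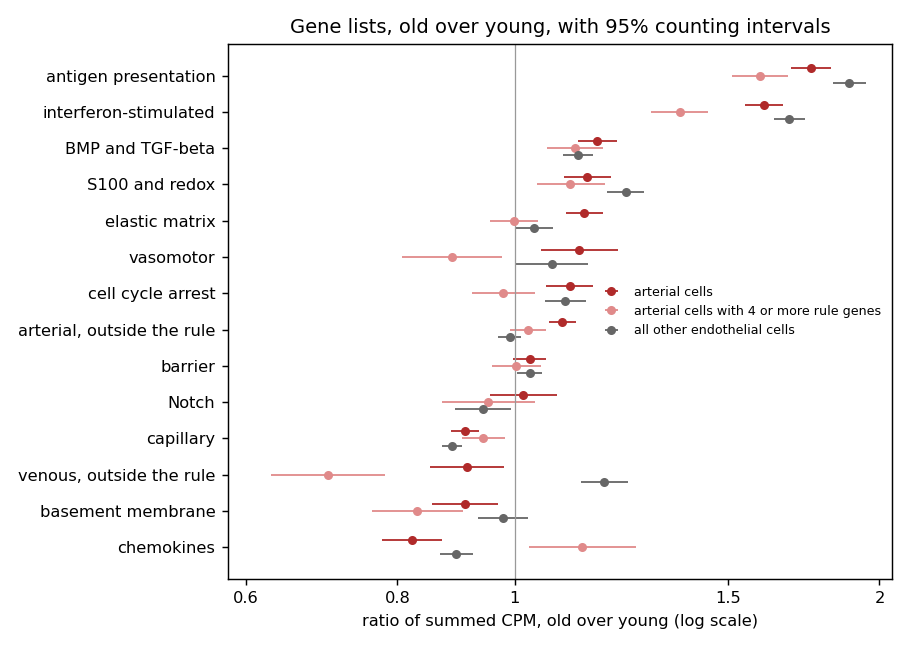
Ratio of summed CPM, Old over Young (log axis), for 14 gene lists in all arterial cells (red), in arterial cells with 4 or more rule genes (pink) and in the other endothelial cells (grey), with 95% counting intervals. Antigen presentation (1.76) and interferon-stimulated genes (1.61) stand on the right in all 3 groups of cells. Venous genes lie at 0.91 in arterial cells, where leaving out Plvap moves them to 0.975.

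Single genes with the highest ratios of Old to Young included some at low levels in the other endothelial cells. Cytl1, which encodes a small secreted cytokine-like protein (chr5:37735519-37739820, plus strand), had 0 UMIs in Young, 23 in 4 Adult and 50 in 13 Old arterial cells, at least 10.4-fold higher in Old than in Young, and 0 UMIs in the other endothelial cells. Igfbp4, a binding protein for insulin-like growth factors (chr11:99041244-99054392, plus strand), lay at 7.79, 15.4 and 80.1 CPM in 5, 5 and 25 cells (10.3-fold, 4.56 to 28.7). It was 7.38-fold higher in cells with 4 or more rule genes, and lay at 3.50, 9.91 and 1.73 CPM in the other endothelial cells. Dkk2 was seen in 8, 9 and 30 cells and was 3.15-fold higher among cells with 4 or more rule genes. Scara3 (chr14:65919394-65953935, minus strand) lay at 11.7, 12.8 and 38.8 CPM in 6, 5 and 18 cells (3.32-fold). Of the 17 cells with Cytl1, 9 held Igfbp4, 9 Scara3 and 7 Dkk2, against 26, 20 and 40 of the 285 without it. Fbln5 was in 12 of the 17 and 19 of the 285.

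Others among the 12 highest were, beside Cxcl10, mostly genes induced by interferon. H2-Q6, H2-Q7 and Ifit3b are given above, Gm4951, an interferon-inducible GTPase gene, lay at 11.7, 28.2 and 55.8 CPM (4.78-fold), and Phf11b at 9.08, 11.5 and 38.8 CPM (4.27-fold). In the other endothelial cells Gm4951 was 3.83-fold and Phf11b 5.18-fold higher in Old than in Young. Ptgds, a prostaglandin synthase, had 2, 0 and 52 UMIs, 80.8% of the last in 1 cell.

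Of the 12 lowest, some rested mostly on 1 cell. Plvap had 87, 0 and 4 UMIs, 86 of the 87 in 1 Young cell. The rod genes Prph2 (64.9, 18.0 and 11.3 CPM), Gnat1, Gngt1 and Sag were lower in Old cells, but 1 Young cell held 47 of the 50 Young UMIs of Prph2, 36 of 42 of Gnat1, 48 of 57 of Gngt1 and 28 of 39 of Sag. With cells marked as doublets left out, the ratios of these 4 genes were 2.83, 2.02, 2.09 and 1.27, so their lower direction did not hold. Rgs5 lay at 590, 640 and 207 CPM (0.351-fold), beside 0.699-fold in the other endothelial cells. The other pericyte genes outside the rule summed to 31.1, 41.1 and 28.3 CPM (0.909-fold, 0.525 to 1.60), and their part in this was not tested. Sox4, a transcription factor, lay at 76.6, 38.5 and 25.9 CPM (0.338-fold) and Cachd1 at 57.1, 33.4 and 21.0 CPM (0.368-fold), against 0.668-fold and 0.986-fold in the other endothelial cells. Both were lower still in cells with 4 or more rule genes (0.199-fold and 0.221-fold). Bok, a BCL2-family gene, lay at 84.3, 78.3 and 34.8 CPM (0.412-fold), the immediate early gene Egr3 at 66.2, 23.1 and 23.5 CPM (0.354-fold), and the heat shock gene Hspa1b at 118, 127 and 46.9 CPM (0.397-fold). In the other endothelial cells the ratios of Bok, Egr3 and Hspa1b were 0.726, 1.14 and 0.351. Egr3 turned to 1.09-fold without smooth muscle UMIs and 1.21-fold with cells thinned, and Hspa1b turned to 1.79-fold in cells with 4 or more rule genes.

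Of the genes often followed in senescence, Cdkn1a, the cyclin-dependent kinase inhibitor p21, lay at 313, 216 and 209 CPM (0.67-fold), lower in Adult and Old than in Young arterial cells. Gadd45g, a growth arrest gene, lay at 135, 230 and 293 CPM (2.17-fold). The cell cycle arrest list was 1.11-fold higher in Old cells and 0.979-fold in those with 4 or more rule genes. A list of S100 and oxidative stress genes was 1.15-fold higher (1.10 to 1.20) in Old arterial cells, beside 1.24-fold in the other endothelial cells, with 11 of 17 members higher, 6 lower and 2 at least 1.5-fold higher, against 5.58% of all genes. The 2 were S100a6, a calcium-binding protein gene, which lay at 232, 399 and 455 CPM (1.96-fold), and Mgst1, a glutathione transferase of membranes, at 44.1, 77.0 and 115 CPM (2.60-fold).

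Signs of other cells in the arterial class also differed between libraries. Haemoglobin genes summed to 18530, 3046 and 24672 CPM, concentrated in 3, 1 and 5 cells above 5% of their UMIs. Rod genes summed to 466, 217 and 128 CPM, but 1 Young cell held 300 of the 359 Young rod UMIs, and without it the Young level was 78.7 CPM. Müller glia genes summed to 1605, 1931 and 1984 CPM, and smooth muscle genes to 122, 158 and 125 CPM. Of the 8 Müller glia genes only 2 had at least 50 UMIs in Young and Old arterial cells together, so that sum rested on few genes. Leukocyte genes summed to 32.4, 190 and 95.4 CPM, of which Laptm5 gave 24 of 25, 35 of 148 and 77 of 118 UMIs, and without Laptm5 they summed to 1.30, 145 and 33.2 CPM. In the Adult library 1 cell held 47 of the leukocyte UMIs. Apart from the values given without haemoglobin-rich cells, without smooth muscle UMIs or without a named cell, the part of these signals in the age differences was not tested.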

How the data were processed

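Sorted retinal cells were sequenced as 3 single-cell libraries, 1 per age. The deposited matrices hold UMI counts per gene and barcode, which the authors made with Cell Ranger 6.1.2 on mm10 (GRCm38) per the labels, with Seurat and DoubletFinder used later by the study. The matrices were read as deposited, with no normalization, and held 32285 genes. Members and gene lists were chosen with earlier results of these data known.

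Cells were kept and classed by the counts given in the report. No doublets were removed, since Scrublet (scanpy 1.11.5) marked 8, 17 and 12 cells, of which 1 was arterial. Counts were summed per library and class and fitted with edgeR 4.0.16 (quasi-likelihood, trimmed-mean normalization, library as block, Benjamini-Hochberg adjustment over 8059 genes) in R 4.3.3. The block came from the design, as the classes of a library share its animals and droplets. The code of the fit was run on simulated counts, a check of the code and not of the classes. Between ages, with 1 library each, ratios of counts carry exact conditional intervals, levels exact Poisson intervals and shares Clopper-Pearson intervals, computed with scipy 1.17.1. These intervals cover 95% of counting error only. Genes at 0 were set at 3 counts to give a bound.

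Genes were named where they were outside the rule, past an adjusted p of 0.05 against both classes and of 1 direction in the 3 libraries (the 15 highest and 10 lowest by mean log2 fold change). Between ages they were named where they had at least 50 UMIs in Young and Old arterial cells together and an interval excluding 1 (the 12 highest and 12 lowest). Genes of the lists and of the rule were also named. A few of the genes so named are not reported here. Gene positions are from GENCODE M21, promoters from RefSeq. Alternatives were DESeq2 1.42.0, other size factors, no filter on low counts, no block, at least 3 rule genes, no smooth muscle or pericyte UMI, no limit on pericyte genes, thinning to 2000 UMIs, narrower mitochondrial limits, no doublets, means over cells and each library left out. The alternatives with at least 4 rule genes, with fewer than 2 venous genes, and with a gene or a cell left out of a list sum were chosen after seeing the data.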

Additional observations from a re-analysis of the deposited data

Results flagged for a closer look

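In 17 of 5381 genes with at least 50 UMIs in each of arterial and other endothelial cells, the Old-to-Young ratios of these groups of cells were on opposite sides of 1, with both counting intervals excluding 1. Of these, 3 were higher and 14 lower in Old arterial cells. The 3 with the most different ratios in each direction follow, with the arterial ratio divided by the other as the quotient. With 1 library per age the differences were not tested across animals.

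Clu had the largest quotient of the 6, 3.97. It lay at 128, 171 and 251 CPM in Young, Adult and Old arterial cells (1.96-fold, 1.56 to 2.48) and at 44.3 CPM in Young and 21.9 CPM in Old other endothelial cells (0.493-fold). Of the 76 Young UMIs in those other cells, 47 lay in 1 cell, and without it their ratio was 1.28 (0.766 to 2.15), so the opposite direction rested on that cell. Aak1, a kinase of clathrin-coated vesicles, had a quotient of 3.09, with 1.73-fold (1.05 to 2.96) in arterial and 0.560-fold in other endothelial cells. Cst3, the protease inhibitor cystatin C, had a quotient of 1.19, with 1.10-fold and 0.926-fold.

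Lower in Old arterial cells and higher in the other Old endothelial cells were Stx17, a syntaxin of autophagosomes (0.548-fold and 1.62-fold, quotient 0.338), Ctla2b, a cathepsin inhibitor gene (0.588-fold and 1.70-fold, quotient 0.346), and Hyal2, a hyaluronidase (0.665-fold and 1.57-fold, quotient 0.423). Stx17 was seen in 23 of 86 Young, 26 of 95 Adult and 26 of 121 Old arterial cells.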

How the results depend on the processing

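With 1 library per age, no value between ages carries a spread between animals, and thinly counted genes rest on few cells. No paired analysis was possible because each age was a single library. Between classes the library was the block. Without the replicate block, 284 genes were higher and 168 lower than in venous-marker cells (398 and 256 with it), and 215 higher and 106 lower than in the remaining cells (342 and 249). DESeq2 gave 174, 99, 140 and 98 in that order, leaving out cells with a smooth muscle UMI 185, 102, 117 and 75, and thinning 105, 79, 107 and 102. With 1 library left out the ranges were 244 to 286, 142 to 161, 202 to 229 and 104 to 114. None of the 25 named class genes turned direction where it could be fitted. DESeq2 called 20 of them against venous-marker cells and 17 against the remaining cells, and after thinning none was left to test. Without smooth muscle UMIs 17 could be fitted, of which 13 and 11 stayed called, and without the Old library 22, of which 19 and 15 did. Directions turned for Vcam1 (−0.64 against venous-marker cells without smooth muscle UMIs) and Psmb9 (−0.065 against venous-marker cells, thinned). Causes were not tested.

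The arterial shares were 12.7, 13.6 and 23.1% with at least 3 rule genes, 12.8, 14.6 and 18.8% thinned, and 6.62, 9.84 and 17.9% with at least 4. For interferon-stimulated genes the ratio of Old to Young (1.61) was 1.44 with at least 3 rule genes, 2.11 without smooth muscle UMIs, 1.76 thinned, 1.70 as a mean over cells and 1.37 with at least 4 rule genes, and that of Adult to Young (1.20) was 1.15 and 1.11 in the first pair. For antigen presentation (1.76) it was 1.65, 1.99, 1.83 as a mean over cells and 1.59 with at least 4, and for Adult to Young (1.15) 1.23, 1.06, 1.08 thinned and 1.22 with at least 4. For the arterial list (1.09) it was 1.07, 1.01, 1.17 without pericyte markers and 1.03 with at least 4, and for Adult to Young (1.24) 1.42 without smooth muscle UMIs, 1.32 and 1.19. The quotient to other endothelial cells was 0.854 (at least 3), 0.812 (at least 4), 1.11 (thinned) and 1.06 (remaining cells) for interferon-stimulated genes (0.953), 0.873 (at least 3) and 0.843 (at least 4) for antigen presentation, and 1.04 (at least 4) for the arterial list. The direction turned with at least 4 rule genes for vasomotor (0.887, and 0.880 for Adult), elastic matrix (0.999), chemokine (1.14) and cell cycle arrest genes (0.979), for the last in Adult cells with at least 3 (0.963), and for venous genes as a mean over cells (1.07).

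Among genes with low ratios of Old to Young, direction turned without smooth muscle UMIs, without pericyte markers and without doublets for Prph2 (3.85, 8.04 and 2.83) and Gngt1 (1.07, 2.20 and 2.09). It turned without pericyte markers and without doublets for Gnat1 (1.88 and 2.02) and Sag (1.82 and 1.27). Egr3 turned without smooth muscle UMIs (1.09) and thinned (1.21), and Hspa1b with at least 4 rule genes (1.79).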
